A study of Mus musculus with 8 samples.

Results

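The genes described here are the matrix metalloproteinases, the ADAM and ADAMTS metalloproteinases, the ADAMTS-like proteins and the tissue inhibitors of metalloproteinases, measured by bulk RNA sequencing of whole mouse lung. They were taken by symbol alone, as every gene whose name begins with Mmp, Timp, Adam, Adamts or Adamtsl directly followed by a number, which gave 54 of the 15960 genes in the table. They comprise 16 Mmp, 3 Timp, 17 Adam, 13 Adamts and 5 Adamtsl genes. The control group was 4 libraries from mice with the Alb-Cre genotype. The other group, BHLKO, was 4 libraries from mice carrying Alb-Cre together with Hif1_alpha fl/fl and Bmal1fl/fl, so the Cre driver is shared by both groups. Alb-Cre is expressed from the albumin promoter, which is active in hepatocytes, so the lung is an organ outside the targeted one. All were C57BL/6 mice of 3 to 5 months. They lived for 2 weeks under 12 h of light and 12 h of darkness, had no light on the final day, and every lung is labelled circadian time 16. The series asks what happens in the lung when the liver lacks BMAL1, an activator of the circadian clock, and HIF1A, which drives the response to low oxygen. Its title names hepatopulmonary syndrome, a lung disorder of liver disease.

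Matrix metalloproteinases are zinc enzymes that cut collagens, gelatin, elastin and other proteins of the extracellular matrix, and most are made as inactive precursors. ADAMs are mainly membrane proteins, several of which release growth factors and receptors from the cell surface. ADAMTS enzymes are secreted and cut proteoglycans, procollagens and other matrix proteins, while ADAMTS-like proteins share their matrix-binding parts but lack the protease. TIMPs block the active site of these enzymes. In lung these genes are known for their part in alveolar matrix turnover and in emphysema and fibrosis.

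The catalytic zinc is held by 3 histidines spaced along a short signature, in which a glutamate follows the first histidine and a single further residue stands before the last spacer. A search of the longest annotated coding sequence of each gene (GENCODE M21, mm10) found this signature in 39 of the 54 genes. All 16 Mmp and all 13 Adamts genes had it, as did 10 of 17 Adam genes. It was not found in the 3 Timp genes, the 5 Adamtsl genes, or Adam3, Adam4, Adam5, Adam11, Adam22, Adam23 and Adam32. The residue before the last spacer was glycine in 33 genes, asparagine in 5 (Adamts1, Adamts4, Adamts9, Adamts15 and Adamts20) and serine in Adamts8. The coding bases of the site are shown for the members the results turn on, sense strand, with the codons of the histidines, the glutamate and that further residue in capitals. Mmp2 and Mmp19 rose, Mmp9 had 1 library far above the rest, Adam17 is a main sheddase, and the 3 Adamts genes show the departures from glycine.
Mmp2: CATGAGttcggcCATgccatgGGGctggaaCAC
Mmp19: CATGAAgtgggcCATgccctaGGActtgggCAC
Mmp9: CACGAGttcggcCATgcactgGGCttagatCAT
Adam17: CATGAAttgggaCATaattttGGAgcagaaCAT
Adamts1: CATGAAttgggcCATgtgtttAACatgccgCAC
Adamts8: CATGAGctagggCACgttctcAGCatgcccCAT
Adamts15: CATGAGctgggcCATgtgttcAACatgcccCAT

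Promoter windows, 250 bases before to 50 after a start site, were taken from RefSeq (GRCm38.p6), where 33 of the 54 genes had 37 windows. Because the targeted factors bind known letters, each window was searched on both strands for the E-box CACGTG of BMAL1 and for ACGTGC, a form of the hypoxia response element, which overlaps an E-box followed by C. The lung is outside the targeted organ, and binding of these factors at the windows was not tested. The E-box was in 4 of the 37 windows and in 7.15% of all 32851 windows. This form of the hypoxia response element was in 3 of the 37 and in 5.91% of all, and other forms were not searched. The AP-1 motif TGANTCA was in 4 of the 37, against 7.81% of all, and TATAAA in 6 of the 37, against 13.6% of all. Of the 4 genes that rose, Timp1 and Adamtsl2 had a window. They are shown with that of Adamts1, which had the highest fold change of all tested members but did not pass the test. Capitals mark TATAAA, 30 bases before the start in Adamtsl2 and 32 before it in Adamts1, and the Timp1 window holds none of the 4 motifs. The windows are chrX:20869916-20870215 on the plus strand for Timp1, chr2:27079129-27079428 on the plus strand for Adamtsl2 and chr16:85803064-85803363 on the minus strand for Adamts1.
Timp1: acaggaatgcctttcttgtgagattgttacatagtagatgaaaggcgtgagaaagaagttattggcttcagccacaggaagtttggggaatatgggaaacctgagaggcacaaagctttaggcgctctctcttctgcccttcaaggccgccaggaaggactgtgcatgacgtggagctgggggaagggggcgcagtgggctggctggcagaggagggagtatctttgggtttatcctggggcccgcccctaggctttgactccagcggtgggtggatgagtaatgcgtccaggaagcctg
Adamtsl2: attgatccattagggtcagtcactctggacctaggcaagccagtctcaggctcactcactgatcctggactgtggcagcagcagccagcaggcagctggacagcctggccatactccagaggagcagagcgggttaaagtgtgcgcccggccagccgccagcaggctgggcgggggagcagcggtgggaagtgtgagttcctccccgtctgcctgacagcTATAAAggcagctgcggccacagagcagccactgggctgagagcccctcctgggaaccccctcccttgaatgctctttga
Adamts1: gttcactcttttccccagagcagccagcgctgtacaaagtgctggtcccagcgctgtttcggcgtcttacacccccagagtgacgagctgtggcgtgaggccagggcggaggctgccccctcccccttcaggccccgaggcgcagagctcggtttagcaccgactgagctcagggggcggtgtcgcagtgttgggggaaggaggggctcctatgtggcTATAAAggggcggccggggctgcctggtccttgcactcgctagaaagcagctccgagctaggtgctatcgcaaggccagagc

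Total counts ran from 6838427 to 15430372 per library, so 1 CPM (1 count per 1e6 after scaling) stands for 6.92 to 15.1 counts. The libraries are numbered 1, 2, 4 and 5 in Alb-Cre and 2, 3, 4 and 5 in BHLKO, without a statement that each came from a separate animal, so p-values reflect only library-to-library spread, which may be technical. All 10 markers of alveolar type 2 cells were present in every library. Neither targeted gene differed detectably in lung, with Arntl (Bmal1) at 5.63 to 8.58 CPM in Alb-Cre and 5.62 to 11.1 CPM in BHLKO (adjusted p = 0.726, edgeR) and Hif1a at 10.2 to 14.6 and 12.2 to 14.8 CPM (adjusted p = 0.853, edgeR). Counts over whole genes in an organ outside the targeted one do not check the genotype labels. Summed levels of markers of other cell types also differed between the groups in several lists. The summed level of T and NK cell markers was 96 to 192 CPM in Alb-Cre and 51 to 93.5 CPM in BHLKO, and that of B and plasma cells 97.1 to 364 and 51.9 to 88.5 CPM. Platelet markers summed to 277 to 338 CPM in Alb-Cre and 374 to 777 CPM in BHLKO, and red blood cell markers to 412 to 619 and 793 to 1006 CPM. Markers of thymus, thyroid and esophagus summed to 46.6 to 91.7 CPM in Alb-Cre and 22.5 to 41.8 CPM in BHLKO. The groups did not overlap in any of these sums, whereas they did in the next 2. Adipocyte markers, a check for attached tissue, summed to 3434 and 2419 CPM in Alb-Cre replicates 1 and 4, against 330 to 1514 CPM in the other libraries. Cardiac muscle markers summed to 1572 to 3318 CPM in Alb-Cre and to 2163 to 6486 CPM in BHLKO. The part of any of these in the results was not tested.

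Of the 40 members with enough counts to be tested, 4 were higher in BHLKO lung and 0 were lower. These were the gelatinase Mmp2, the inhibitor Timp1, the ADAMTS-like gene Adamtsl2 and the metalloproteinase Mmp19, each 1.52- to 1.74-fold higher. Over all 13517 tested genes 2.26% passed the test in either direction, 1.04% higher and 1.23% lower in BHLKO (edgeR quasi-likelihood test, Benjamini-Hochberg adjusted p under 0.05 over all tested genes). The median log2 fold change was 0.08 over the 40 members and −0.0017 over all tested genes, and 72.5% of the members lay above 0 against 49.7% of all. With 4 calls, no statement about the group as a whole was made from these counts. In 5 of the 40 members, the called genes and Adamts8, every BHLKO library lay above every Alb-Cre library, where 4.63% of all tested genes did so, and in 0 members they lay below, against 4.99% of all (9.62% in either direction). At an unadjusted p under 0.05 there were 10 of the 40 members and 2180 of the 13517 genes. DESeq2 called 6 members and 5.24% of all genes. In whole tissue, more RNA per cell and more cells of a type cannot be told apart.

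**Figure D1:**
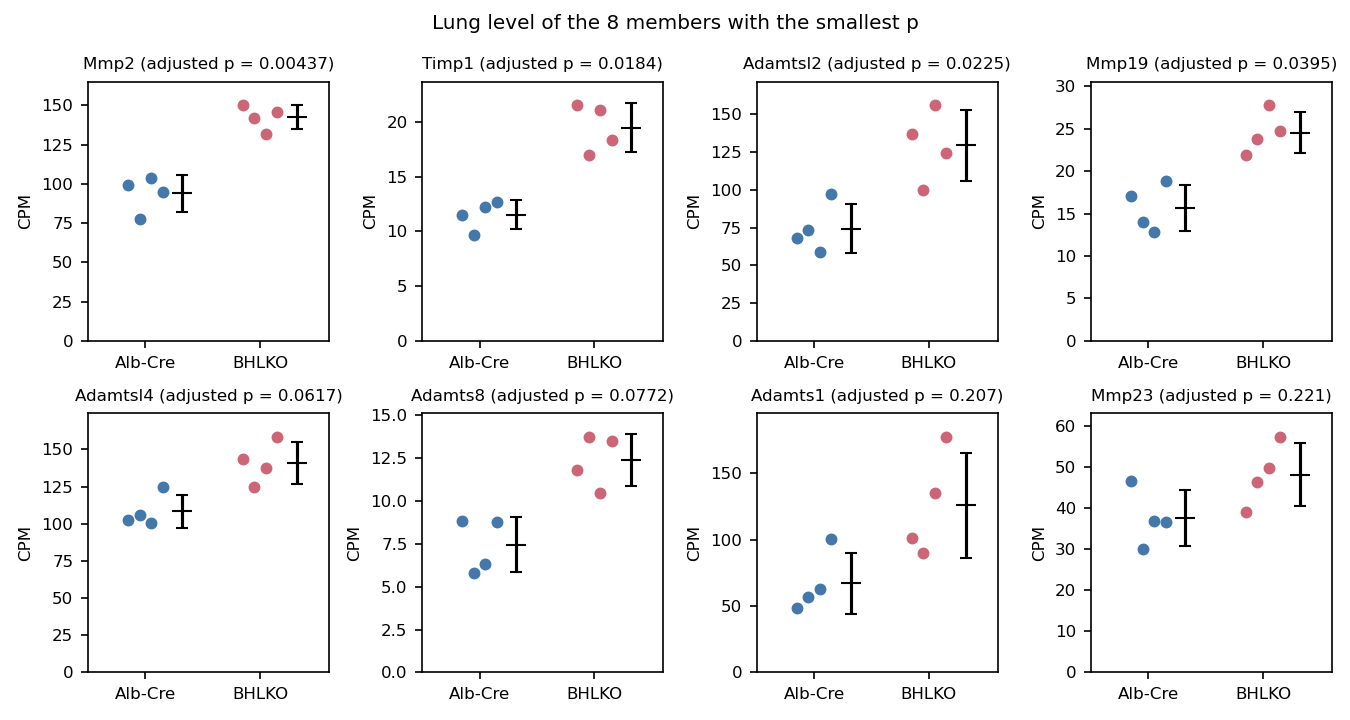
CPM (counts per 1e6, y axis from 0) in each library for the 8 tested members with the smallest p, Alb-Cre in blue and BHLKO in red. Each point is a library, and the bar beside the points is the mean ± SD of 4. In Mmp2, Timp1, Adamtsl2, Mmp19 and Adamts8 the groups do not overlap.

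Among the inhibitors, Timp1, an inducible soluble inhibitor (chromosome X, 20870166 to 20874735), was at 11.5, 9.68, 12.2 and 12.6 CPM in Alb-Cre replicates 1, 2, 4 and 5 and at 21.5, 16.9, 21.1 and 18.3 CPM in BHLKO replicates 2, 3, 4 and 5. The groups did not overlap, and the lowest BHLKO library was replicate 3. Timp1 rose 1.68-fold, from 11.5 ± 1.3 to 19.5 ± 2.21 CPM (SD, n = 4 each; log2 fold change 0.75 ± 0.16 SE, edgeR adjusted p = 0.0184). When libraries were left out in turn, 3 of 8 fits kept the call. It was lost without Alb-Cre replicate 1, 2 or 4, and likewise without BHLKO replicate 2 or 4 (adjusted p up to 0.0729, edgeR), while the log2 fold change stayed between 0.68 and 0.81. Timp2, the broadly expressed inhibitor that also takes part in activation of pro-MMP2, was at 810 to 927 CPM in Alb-Cre and 817 to 982 CPM in BHLKO, with groups that overlapped (log2 fold change 0.05 ± 0.09, edgeR adjusted p = 0.817). Timp3, the inhibitor that stays bound to the matrix and also inhibits ADAM17, was at 1040 to 1248 CPM and 1182 to 1315 CPM (log2 fold change 0.16 ± 0.09, edgeR adjusted p = 0.376). Of the exonic bases of Timp3, 21.3% are shared with Syn3 on the opposite strand, which had 12 counts in Alb-Cre and 19 in BHLKO over all libraries.

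Both gelatinases, which cut denatured collagen and basement membrane collagen, were measured. Mmp2 (chromosome 8, 92827291 to 92853420), the gelatinase of mesenchymal cells, was at 99.1, 77.6, 104 and 94.9 CPM in the Alb-Cre libraries and at 150, 142, 132 and 146 CPM in the BHLKO libraries. The BHLKO libraries lay close together and all above the highest control. Mmp2 rose 1.52-fold, from 93.9 ± 11.5 to 143 ± 7.72 CPM (log2 fold change 0.60 ± 0.10, edgeR adjusted p = 0.00437). Its call was kept in all 8 fits that left out a library, with log2 fold changes of 0.52 to 0.65. Mmp9, the gelatinase of neutrophils and macrophages, was at 8.63, 12.1, 9.95 and 55.4 CPM in Alb-Cre and at 12, 9.55, 8.85 and 7.23 CPM in BHLKO. Only Alb-Cre replicate 5 stood apart, and the other 7 libraries overlapped. The log2 fold change was −1.21 ± 0.69 (edgeR adjusted p = 0.466), and −0.11 without Alb-Cre replicate 5.

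Mmp19, a metalloproteinase with basement membrane proteins among its substrates (chromosome 10, 128790910 to 128800824), was at 17, 14, 12.9 and 18.8 CPM in Alb-Cre and at 21.9, 23.7, 27.8 and 24.8 CPM in BHLKO. All BHLKO libraries lay above the highest control. Mmp19 rose 1.56-fold, from 15.7 ± 2.72 to 24.6 ± 2.46 CPM (log2 fold change 0.64 ± 0.15, edgeR adjusted p = 0.0395). The call was kept only without Alb-Cre replicate 5 and lost in the other 7 fits that left out a library (adjusted p up to 0.121, edgeR), with log2 fold changes of 0.55 to 0.74. Of its exonic bases, 28.3% are shared with Tmem198b and Gm47093 on the opposite strand, and no source used here says whether counting used strand. Tmem198b itself stood at 32.2 ± 2.73 CPM in controls and 29.7 ± 1.45 CPM in BHLKO lung (edgeR adjusted p = 0.665).

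The other tested matrix metalloproteinases did not pass. Mmp23, a small membrane-anchored member, was at 30.1 to 46.5 CPM in Alb-Cre and 39 to 57.3 CPM in BHLKO, with groups that overlapped (log2 fold change 0.35 ± 0.14, edgeR adjusted p = 0.221). Mmp15, of the membrane-type group, was at 139 to 171 CPM in Alb-Cre and 152 to 161 CPM in BHLKO (log2 fold change 0.01 ± 0.09, edgeR adjusted p = 0.974). Mmp14, the membrane-type enzyme that activates pro-MMP2, was at 22.1 to 29.1 CPM and 23.2 to 31.4 CPM (log2 fold change 0.09 ± 0.14). Mmp17, also of the membrane-type group, was at 2.05 to 4.61 and 2.57 to 3.53 CPM. The stromelysins Mmp3 (7.38 to 12.8 and 9.29 to 15.2 CPM) and Mmp11 (28.9 to 36.9 and 25.6 to 34.8 CPM) had log2 fold changes of 0.27 ± 0.22 and −0.06 ± 0.13. Mmp8, the neutrophil collagenase, is given with the neutrophil markers. A missed threshold does not show that these levels were alike.

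**Figure D2:**
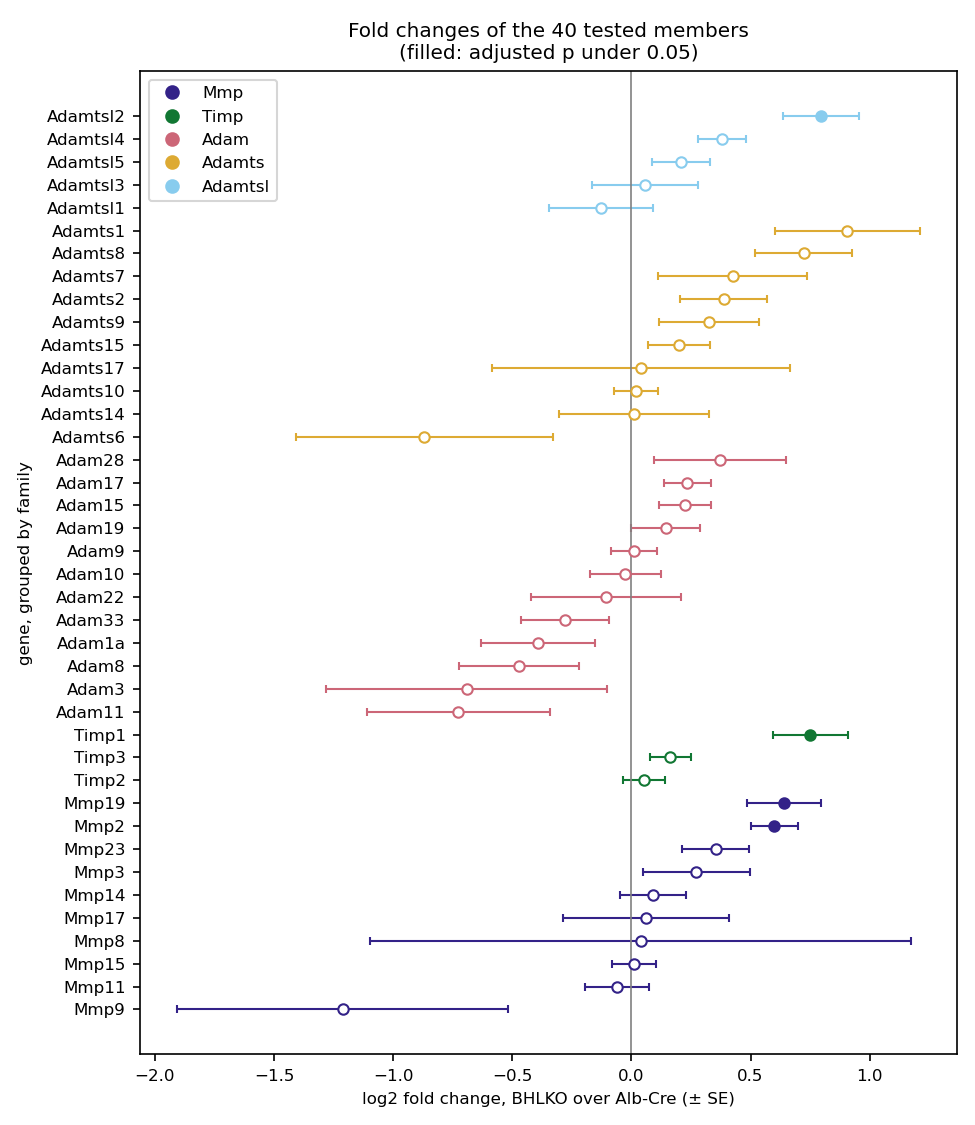
Log2 fold change of BHLKO over Alb-Cre (x axis, ± SE) for the 40 tested members, grouped by family on the y axis. Filled points passed at adjusted p under 0.05: Mmp2, Mmp19, Timp1 and Adamtsl2, all above 0.

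None of the 12 tested Adam genes passed the test. In the role list, 8 with known protease activity were tested, with a median log2 fold change of 0.08, and the smallest p was that of Adam17, which releases TNF and ligands of the EGF receptor from the cell surface. Adam17 was at 54.7, 54.1, 58.1 and 52.7 CPM in Alb-Cre and at 57.7, 65.9, 72.1 and 62.8 CPM in BHLKO. Only BHLKO replicate 2 lay within the range of the controls (log2 fold change 0.23 ± 0.10, edgeR adjusted p = 0.24). Adam15, expressed in endothelium among other cells, was at 125 to 146 CPM in Alb-Cre and 128 to 183 CPM in BHLKO (log2 fold change 0.22 ± 0.11, edgeR adjusted p = 0.322). Of the exonic bases of Adam15, 20.6% are shared with 4731419I09Rik on the opposite strand, so its value is uncertain to that extent. Adam10, the sheddase of Notch receptors and cadherins, was at 15.6 to 20.1 CPM and 15.3 to 19.5 CPM (log2 fold change −0.03 ± 0.15, edgeR adjusted p = 0.959). Adam9 was at 72.7 to 94.4 CPM and 81 to 85.1 CPM (log2 fold change 0.01 ± 0.10).

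Adam8, a protease of leukocytes, was at 18.7, 22.5, 47 and 34.8 CPM in Alb-Cre and at 20.1, 24.9, 20.2 and 23.9 CPM in BHLKO. Alb-Cre replicates 4 and 5 were the high libraries, and the BHLKO libraries lay within the range of the controls (log2 fold change −0.47 ± 0.25, edgeR adjusted p = 0.396). Adam33, a gene of mesenchymal cells studied in asthma, was at 16.2 to 29.6 CPM and 16.7 to 24.7 CPM (log2 fold change −0.28 ± 0.18). Adam11, which lacks the zinc signature and is best known in brain, was at 2.85 to 6.65 CPM and 1.2 to 4.17 CPM (log2 fold change −0.73 ± 0.38, edgeR adjusted p = 0.375). Adam1a was at 5.83 to 9.97 CPM and 4.84 to 6.03 CPM (edgeR adjusted p = 0.453), and 63.7% of its exonic bases are shared with other genes, among them Mapkapk5 and Tmem116, so its level is uncertain. The remaining tested ADAMs, Adam3, Adam19, Adam22 and Adam28, had log2 fold changes of −0.69 to 0.37.

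No ADAMTS enzyme passed either, though 2 of the proteoglycan-cutting group had the smallest p of the family. Adamts8 (chromosome 9, 30942562 to 30963838) was at 8.85, 5.78, 6.35 and 8.81 CPM in Alb-Cre and at 11.8, 13.8, 10.5 and 13.5 CPM in BHLKO. The groups did not overlap, but the test over all genes was missed (log2 fold change 0.72 ± 0.20, edgeR adjusted p = 0.0772). Of its exonic bases, 10.6% are shared with Gm29724 on the opposite strand. Adamts1 (chromosome 16, 85793827 to 85803113), an inducible proteoglycanase with inhibitory effects on vessel growth, was at 48.7, 56.5, 62.5 and 100 CPM in Alb-Cre and at 102, 89.6, 135 and 178 CPM in BHLKO. Alb-Cre replicate 5 lay within the BHLKO range and the spread was wide in both groups (67 ± 22.9 and 126 ± 39.4 CPM, log2 fold change 0.91 ± 0.30, edgeR adjusted p = 0.207). Adamts1 passed in 1 of 8 fits that left out a library, the fit without Alb-Cre replicate 5 (log2 fold change 1.17 ± 0.23, edgeR adjusted p = 0.0315). Over the 8 fits its log2 fold change was 0.69 to 1.17, with adjusted p up to 0.373 (edgeR).

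The other proteoglycanases tested were Adamts9 (6.5 to 9.87 and 8.07 to 11.8 CPM) and Adamts15 (47.9 to 59 and 49.9 to 77.1 CPM), with log2 fold changes of 0.33 ± 0.21 and 0.20 ± 0.13. Of the enzymes that trim the amino end of procollagens, Adamts2 was at 10.1 to 16.1 CPM in Alb-Cre and 14.8 to 19 CPM in BHLKO (log2 fold change 0.39 ± 0.18, edgeR adjusted p = 0.309). Adamts14 was at 3.09 to 7.95 and 3.23 to 7.34 CPM (log2 fold change 0.01 ± 0.31). Adamts10, linked to fibrillin microfibrils, was at 215 to 250 CPM in Alb-Cre and 206 to 255 CPM in BHLKO (log2 fold change 0.02 ± 0.09, edgeR adjusted p = 0.946). Adamts6, its close relative, was at 1.99 to 3.04 CPM and 0.172 to 2.47 CPM (log2 fold change −0.87 ± 0.54, edgeR adjusted p = 0.462). Adamts7, which cuts cartilage oligomeric matrix protein, had a log2 fold change of 0.42 ± 0.31.

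Among the ADAMTS-like genes, Adamtsl2, a microfibril-associated protein that limits TGF-beta availability and is mutated in geleophysic dysplasia (chromosome 2, 27079379 to 27108981), was at 68.4, 73.3, 58.9 and 97.1 CPM in Alb-Cre and at 137, 100, 156 and 124 CPM in BHLKO. The groups did not overlap, with Alb-Cre replicate 5 and BHLKO replicate 3 nearly touching. Adamtsl2 rose 1.74-fold, from 74.4 ± 16.2 to 129 ± 23.5 CPM (log2 fold change 0.80 ± 0.16, edgeR adjusted p = 0.0225). Leaving out a library at a time kept the call in 2 of 8 fits, those without Alb-Cre replicate 5 or BHLKO replicate 3 (adjusted p from 0.00117 to 0.104, edgeR), with log2 fold changes of 0.69 to 0.95. Adamtsl4 (chromosome 3, 95676201 to 95687917), which binds fibrillin-1 and is best known from the zonule of the eye, was at 102, 106, 101 and 125 CPM in Alb-Cre and at 144, 124, 138 and 159 CPM in BHLKO. A single pair of libraries, Alb-Cre replicate 5 and BHLKO replicate 3, met at the border of the groups (log2 fold change 0.38 ± 0.10, edgeR adjusted p = 0.0617). The call was made without either of these libraries. Adamtsl5 was at 29.3 to 32.5 CPM and 30.5 to 41.7 CPM, and Adamtsl1 and Adamtsl3 had log2 fold changes of −0.13 ± 0.22 and 0.06 ± 0.22.

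Fits without a library differed in how many genes they called. Over all tested genes the share was 0.953%, 1.42%, 1.14% and 3.78% without Alb-Cre replicate 1, 2, 4 and 5, and 1.21%, 2.33%, 1.37% and 1.29% without BHLKO replicate 2, 3, 4 and 5. Only the shares without Alb-Cre replicate 5 or BHLKO replicate 3 were above the 2.26% of the full set.

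**Figure D3:**
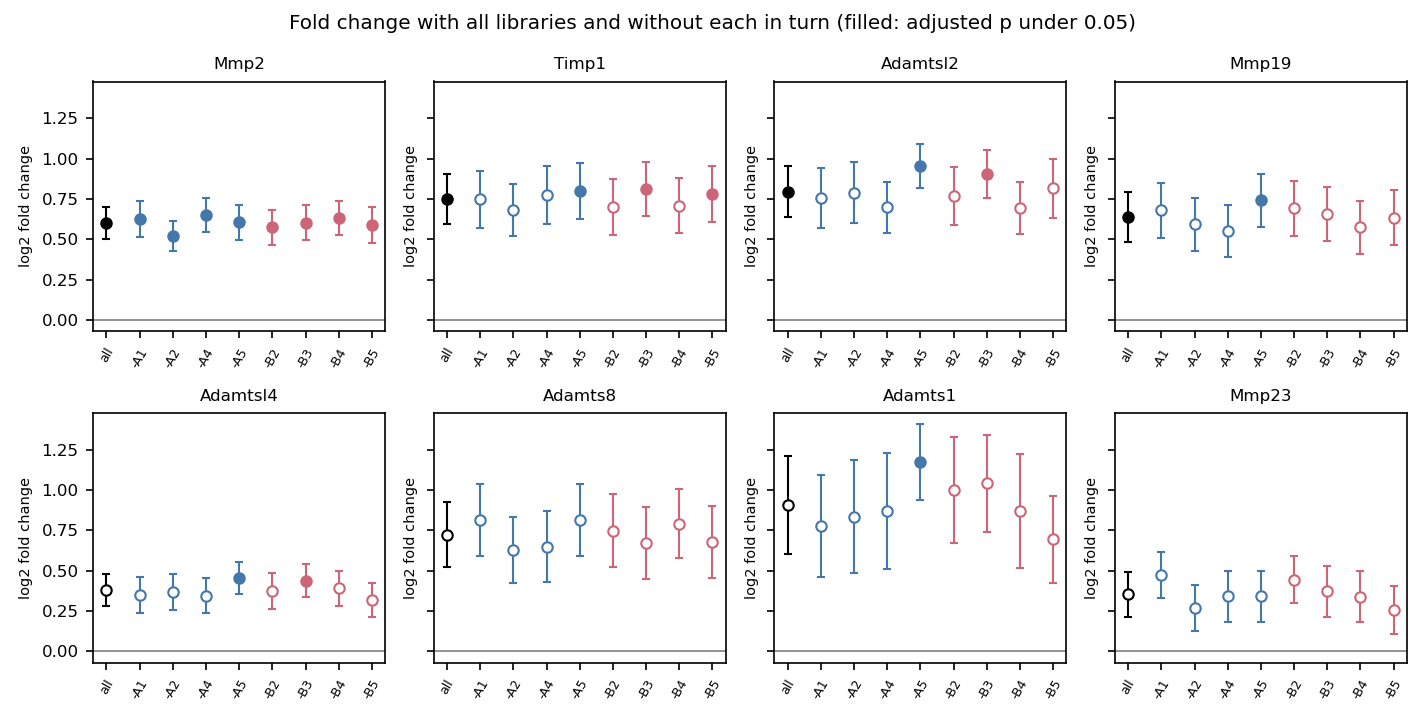
Log2 fold change (y axis, ± SE) of the 8 tested members with the smallest p, with all libraries (black) and without each Alb-Cre (A, blue) or BHLKO (B, red) library in turn on the x axis. Filled points passed at adjusted p under 0.05: Mmp2 in every fit, Timp1, Adamtsl2, Mmp19, Adamtsl4 and Adamts1 in some, and Adamts8 and Mmp23 in none shown, while every value lies above 0.

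To compare levels between genes, CPM was divided by the exonic length of each gene in kilobases. The inhibitors Timp2 and Timp3 stood at the top of this scale. Timp2 was at 221 ± 12.8 CPM per kb in Alb-Cre and 229 ± 17.7 in BHLKO, and Timp3 at 137 ± 11.9 and 153 ± 6.81 CPM per kb, with no overlap between the pair in any library. By the mean over all 8 libraries Mmp2 came next, at 27.9 ± 3.41 CPM per kb in Alb-Cre and 42.3 ± 2.29 in BHLKO. In Alb-Cre lung it did not differ beyond the spread from Mmp15 (28.8 ± 3.1), Adamts10 (28.1 ± 2.08) or Adamtsl4 (25.8 ± 2.61 CPM per kb), whereas in BHLKO lung these 3 stood at 29 ± 0.704, 28.5 ± 2.5 and 33.6 ± 3.38 CPM per kb. Timp1, at 13 ± 1.47 CPM per kb in Alb-Cre, lay far below the other inhibitors and close to Adamts1 (12.6 ± 4.31) and Mmp11 (11.7 ± 1.51). Mmp14, at 4.39 ± 0.523, and Adam10, at 3.72 ± 0.422 CPM per kb, were in the middle of the order. Among the 40 tested members the lowest was Adamts17, at 0.148 ± 0.121 CPM per kb in Alb-Cre.

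**Figure D4:**
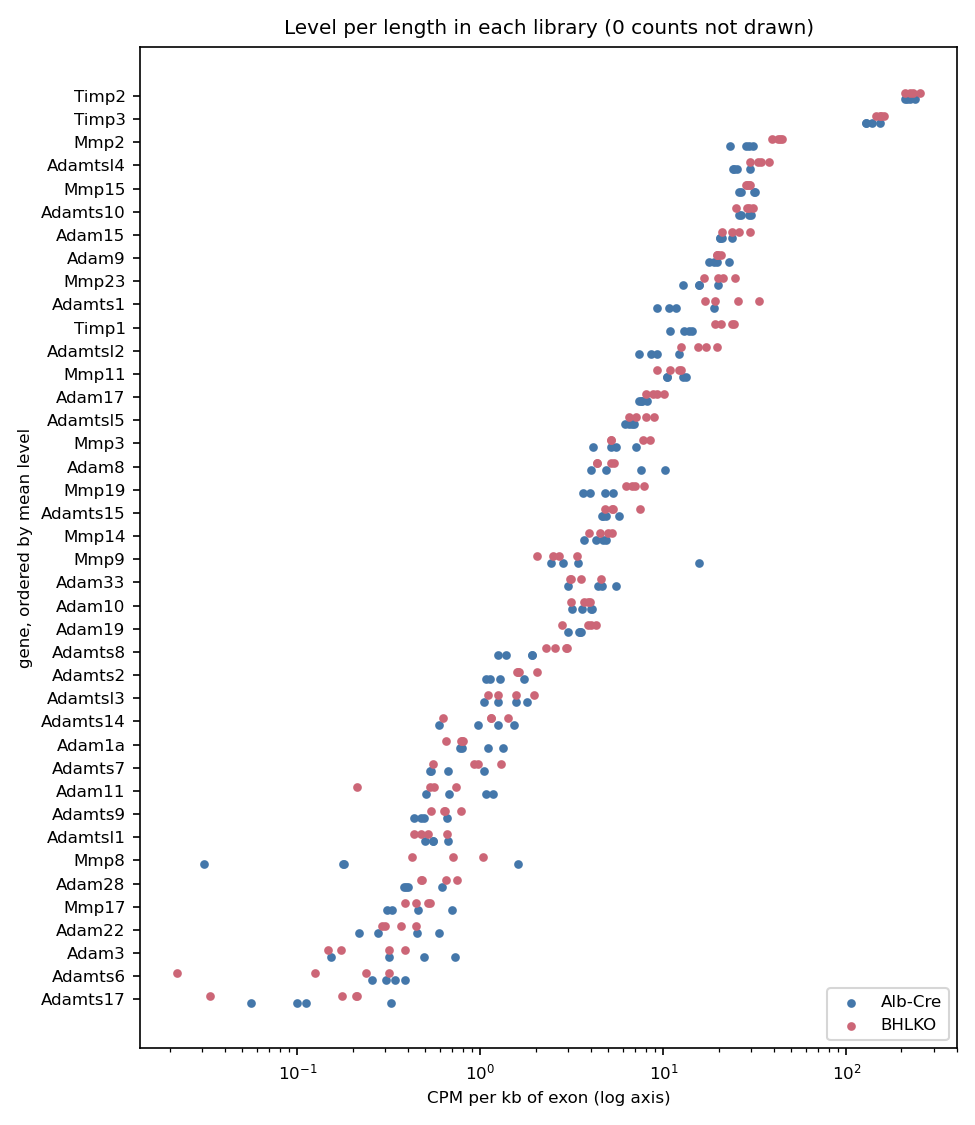
CPM per kilobase of exon (x axis, log scale) in each library for the 40 tested members, ordered by their mean over 8 libraries. Blue points are Alb-Cre and red points BHLKO libraries. Timp2 and Timp3 lie apart from all other members, and Mmp2 is next.

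Mmp8, Mmp9 and Adamts17 varied most within groups, with pooled coefficients of variation of 117%, 104% and 68.3% of the mean. Mmp8, a collagenase stored in neutrophil granules, had 1, 3, 5 and 59 counts in Alb-Cre and 21, 29, 10 and 0 counts in BHLKO. Alb-Cre replicate 5 was highest, BHLKO replicates 2, 3 and 4 were next, and BHLKO replicate 5 had no count. Its log2 fold change was 0.04 ± 1.13 and became 2.12 ± 1.02 without Alb-Cre replicate 5, neither past the test (edgeR adjusted p = 0.991 and 0.301). Mmp25, a membrane-type enzyme of neutrophils, too low to be tested, had 0, 5, 7 and 43 counts in Alb-Cre and 7, 6, 10 and 2 in BHLKO, with Alb-Cre replicate 5 again the highest. Of the neutrophil markers, S100a9 and Csf3r were also highest in Alb-Cre replicate 5. The calprotectin gene S100a9 was at 23.4, 31.1, 28.7 and 309 CPM in Alb-Cre and at 104, 58.9, 79.9 and 14.8 CPM in BHLKO. The receptor gene Csf3r was at 29.7 CPM in Alb-Cre replicate 5 and at 1.28 to 7.82 CPM elsewhere.

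The granule genes Ngp and Camp, which are made in immature neutrophils, followed another order. Ngp was at 49.8, 17.6 and 5.77 CPM in BHLKO replicates 2, 3 and 4 and at 0.0851 CPM in BHLKO replicate 5, against 0.257 to 0.867 CPM in Alb-Cre (edgeR adjusted p = 0.19). Camp was at 42.7, 14.5, 4.43 and 0.766 CPM in BHLKO and at 0.172 to 1.34 CPM in Alb-Cre (edgeR adjusted p = 0.19). Both were low in Alb-Cre replicate 5, where Mmp8, Mmp9 and Mmp25 were highest. All 13 neutrophil markers were listed and none was at 0 in every library, but Ly6g, a defining marker, had 10 counts in Alb-Cre replicate 5, 9 and 3 in BHLKO replicates 2 and 3, and 0 in the other libraries. Their summed level was 255 to 972 CPM in Alb-Cre and 266 to 681 CPM in BHLKO, and their part in the Mmp8, Mmp9 and Mmp25 values was not tested.

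**Figure D5:**
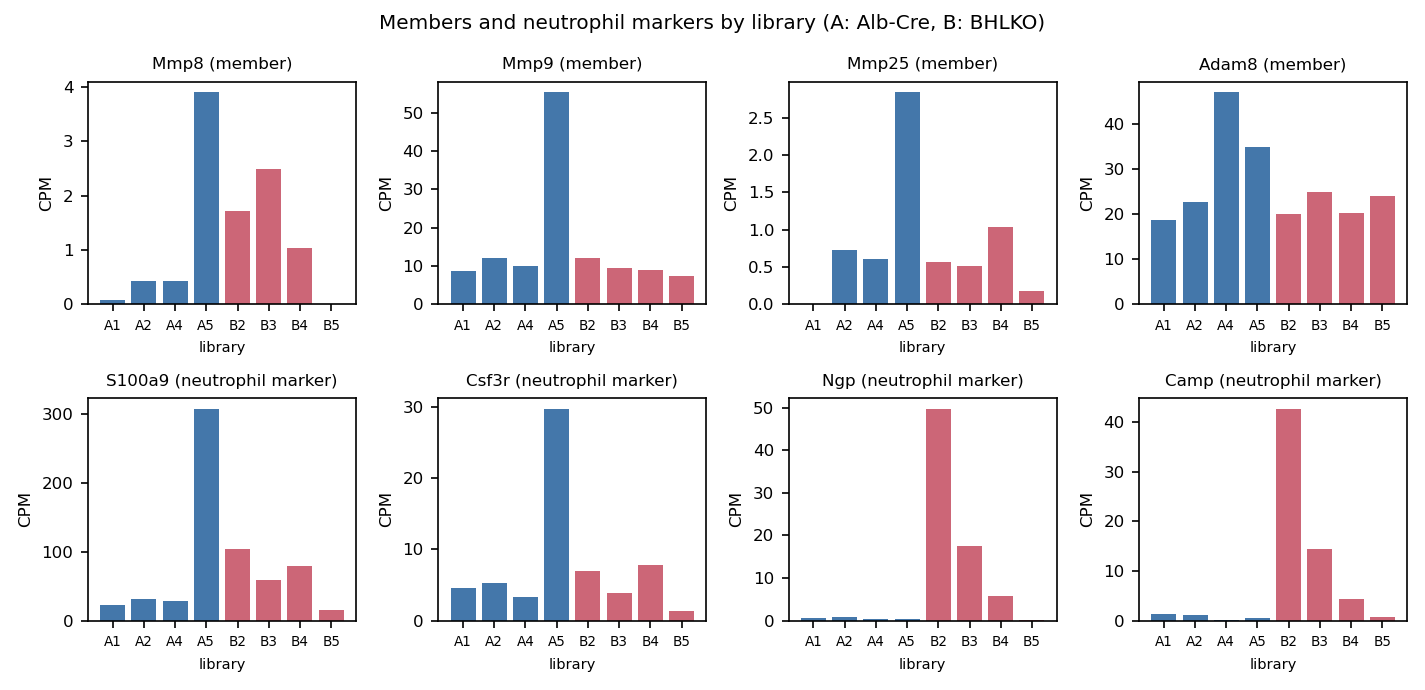
CPM (y axis, from 0) in each library (x axis; A, Alb-Cre in blue; B, BHLKO in red) for 4 members and 4 neutrophil markers. Mmp8, Mmp9, Mmp25, S100a9 and Csf3r are highest in Alb-Cre replicate 5. Adam8 is highest in Alb-Cre replicate 4, and Ngp and Camp are highest in BHLKO replicate 2.

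The 14 members that did not pass the filter had at most 55 counts over the 4 libraries of a group. They were Mmp7, Mmp13, Mmp24, Mmp25, Mmp27 and Mmp28, Adam4, Adam5, Adam12, Adam23 and Adam32, and Adamts4, Adamts19 and Adamts20. Mmp7, the matrilysin of airway epithelium, had 13 counts in Alb-Cre, 10 of them in replicate 4, and 0 in BHLKO. Adamts4, an inducible proteoglycanase, had 1, 0, 0 and 2 counts in Alb-Cre and 4, 2, 6 and 14 in BHLKO. Mmp13, a collagenase, had 3 counts in Alb-Cre and 13 in BHLKO, 7 of them in replicate 5. Adam12 had 23 of its 47 Alb-Cre counts in replicate 1. In Adamts4 every BHLKO library lay above every Alb-Cre library, with at most 14 counts in a library. None of these genes was called in the fit without a filter, and counts this low leave their differences uncertain. Timp4, the macrophage elastase gene Mmp12 and Adamts5 were not analysed here.

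Fibroblasts are known to express Mmp2, Timp1 and other members. Of 13 tested fibroblast markers, 3 passed, all higher in BHLKO, where 2.26% of all tested genes passed in either direction: Dpt (means of 153 and 231 CPM), Pdgfra (115 and 160 CPM) and Npnt (597 and 828 CPM). Over the 13 the median log2 fold change was 0.35, with 11 above 0 and 2 below. The summed level of all 14 was 8104 to 9250 CPM in Alb-Cre and 8994 to 10555 CPM in BHLKO, and these ranges overlapped. None of the 14 was at 0 in every library, though Lum had 0 counts in Alb-Cre replicate 2 and BHLKO replicate 2. The 2 markers below 0 did not pass, with Dcn at 181 and 154 CPM and Tcf21 at 313 and 298 CPM in Alb-Cre and BHLKO (edgeR adjusted p = 0.619 and 0.855). The part of fibroblast content in the rises of Mmp2, Timp1, Adamtsl2 and Mmp19 was not tested. With Alb-Cre replicates 1 and 4 left out, the libraries highest in adipocyte markers, 0.442% of all tested genes passed and Mmp2 kept its call (log2 fold change 0.72 ± 0.12, edgeR adjusted p = 0.0181). The other 3 lost it, at log2 fold changes of 0.79 for Timp1, 0.60 for Adamtsl2 and 0.57 for Mmp19 (edgeR adjusted p = 0.17, 0.238 and 0.302).

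Among other genes of the pathway, the calls are read against the 2.26% of all tested genes that passed, and 1 call in a list of this size is not a result about the list. Of 26 tested regulators of metalloproteinases, 1 rose, 0 fell and 25 did not pass (median log2 fold change 0.02). The gene that rose was Thbs1, whose matrix protein thrombospondin-1 binds MMP2 and activates TGF-beta. It averaged 63.6 ± 20.3 CPM in controls and 121 ± 16.1 CPM in BHLKO lung (log2 fold change 0.92 ± 0.20, edgeR adjusted p = 0.0494). Plat, the tissue plasminogen activator, was at 89 ± 34 and 160 ± 16.9 CPM (edgeR adjusted p = 0.133), and Sdc4, a cell surface proteoglycan, at 98.9 ± 8.58 and 80.7 ± 8.41 CPM (edgeR adjusted p = 0.146). Rhbdf2, which carries ADAM17 to the surface, was at 51.1 ± 7.8 and 63.1 ± 3.9 CPM (edgeR adjusted p = 0.187). Tspan15, a partner of ADAM10, was at 29.1 ± 6.78 and 21.9 ± 1.33 CPM (edgeR adjusted p = 0.217).

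Of 32 tested substrates, 1 rose, 0 fell and 31 did not pass (median log2 fold change 0.18). At an unadjusted p under 0.05 (edgeR) there were 12 of the 32, and 2180 of all 13517 tested genes. Every BHLKO library lay above every Alb-Cre library in 5 of the 32 and below in 1, against 4.63% and 4.99% of all tested genes. The gene that rose was Areg, the EGF receptor ligand amphiregulin, which ADAM17 releases. It averaged 6.65 ± 1.05 CPM in controls and 15.8 ± 5.76 CPM in BHLKO lung (log2 fold change 1.24 ± 0.25, edgeR adjusted p = 0.0177). Fibronectin, Fn1, was at 278 ± 45.8 and 374 ± 26.8 CPM (edgeR adjusted p = 0.0562), and the Notch ligand gene Jag1 at 8.3 ± 0.908 and 12.6 ± 0.961 CPM (edgeR adjusted p = 0.0902). Vtn, the gene of vitronectin, was at 72.5 ± 4.92 and 56.1 ± 8.87 CPM (edgeR adjusted p = 0.111). On leaving out a library at a time, Thbs1 passed only without Alb-Cre replicate 5, and Areg only without Alb-Cre replicate 5 or BHLKO replicate 3 or 4. Thbs1 was also lost without a filter, with the 1 CPM filter and with 1 surrogate variable, and Areg with limma-voom.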

How the data were processed

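The authors deposited whole-number counts per gene and library and, per the file headers, a normalized signal. In the signal deposited by the authors, every library is its counts over a single factor, equal to a DESeq2 size factor computed from them. Tests used only the counts. The submitters' processing notes name STAR 2.5.2b, cutadapt, DESeq2, HTSeq and, as build, mm10, without role or order. Annotation and strand setting: not given in the sources used here. Every listed gene has at least 6 counts in 1 library.

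Counts were tested in R 4.3.3 with edgeR 4.0.16: TMM scaling, filterByExpr with the groups, and the quasi-likelihood F test (robust) for BHLKO against Alb-Cre without covariates, adjusted by Benjamini-Hochberg over all 13517 genes kept. The script was tested on simulated data. CPM is a count over its library's TMM effective size, times 1e6, and the SE of a log2 fold change comes from it and the F statistic. DESeq2 1.42.0, limma 3.58.1 (voom), sva 3.50.0, other scalings and filters, and leaving out libraries were alternatives. Positions and exon lengths are from GENCODE M21 (15643 of 15960 symbols).

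The members and gene lists were chosen with earlier results of these data known. Named members are those called, the next 12 by p, the highest of each family and every Timp, members whose groups do not overlap, and the 3 most variable with a mean of at least 1 CPM; other members are given by range or level. The named regulators and substrates are those called and the next 4 by p of each list, of which 1 substrate is not reported here. Other genes are markers.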

Additional observations from a re-analysis of the deposited data

Results flagged for a closer look

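In 5 of 44 groups of 4 libraries, over the 22 named members, a single library lay far from the other 3, its gap to the nearest over the range being past Dixon's 95% critical value. Chance gives about 1 in 20 groups. Mmp8 and Mmp9 were named for their high variation within groups, so the 5 cannot be read against that share. Mmp9 was at 55.4 CPM in Alb-Cre replicate 5, against 8.63 to 12.1 CPM in the other Alb-Cre libraries. Mmp8 was at 3.91 CPM in the same library, against 0.0744 to 0.434 CPM. Adam15 was at 146 CPM in Alb-Cre replicate 1, against 125 to 128 CPM. Adamts2 was at 19 CPM in BHLKO replicate 5, against 14.8 to 15.2 CPM. Adam1a was at 4.84 CPM in BHLKO replicate 4, against 5.85 to 6.03 CPM.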

How the results depend on the processing

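The 4 called members were called under the other scalings, the other filters and limma-voom. DESeq2 called 6, adding Adamts8 and Adamtsl4, and 708 of all genes and 8 regulators or substrates. At adjusted p under 0.10 the counts were 6, 579 and 4. With 1 surrogate variable Mmp19 lost its call. The regulators and substrates had 1 call without a filter and 1 with a mean of at least 1 CPM. Leaving out each library in turn gave 131 to 520 calls over all genes, 1 to 6 among members and 0 to 7 among regulators and substrates. Leaving out Alb-Cre replicates 1 and 4, chosen after seeing the data, gave 62, 1 and 0. With the replicate number as a block, 160 genes and 1 member, Adamts1 (edgeR adjusted p = 0.00509), were called, Areg was not, and Mmp2 had adjusted p = 0.0503 (edgeR). Alb-Cre replicate 1 and BHLKO replicate 3 have no library of the same number in the other group. They add nothing to the group difference in the block fit, so blocking cannot be told apart there from using fewer libraries. Deviations of same-numbered libraries from their group means correlated at 0.04, −0.0058 and 0.02 for numbers 2, 4 and 5, so the numbers are not taken as pairs. Among the named members the sign turned only in 4, each with a log2 fold change near 0. Mmp15 was at −0.0036 with upper quartile scaling, −0.0014 with library totals and −0.040 to 0.058 on leaving out a library. Adamts17 was at −0.040 with limma-voom and −0.19 to 0.77 on leaving out a library, and Adamts10 at −0.024 with the block and −0.020 to 0.078 on leaving out a library. Mmp8 was at −0.44 with the block, −0.80 without Alb-Cre replicates 1 and 4 and −0.47 to 2.12 on leaving out a library. The causes were not tested. Few counts limit Mmp8, Adamts17 and the 14 untested members.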
